A study of Mus musculus with 6 samples.

Results

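The genes described here are the cytokines and receptors that signal through gp130, and they were found by splitting the symbol field of each table row and keeping the rows that name *Lif*, *Il6*, *Il11*, *Clcf1*, *Cntf*, *Osm*, *Osmr*, *Lifr* or *Il6st*. All 9 genes were found among the 59485 rows, which makes 6 ligands and 3 receptors. They were followed in poly-A RNA of sciatic nerves at postnatal day 4 (P4), with 3 control animals, 3 mutant animals and 1 library per animal. The mutants carried Ht-PA-Cre, *Adar1*fl/fl and R26R, so that Cre from a promoter of human tissue plasminogen activator acts in the neural crest and its derivatives, Schwann cells included, and not in every cell of the nerve. The controls, labelled wild-type, had no Cre, and according to the breeding described for these mice they also carried 1 or more floxed *Adar1* alleles and the R26R tracer of YFP. The comparison addressed which transcripts differ between nerves labelled with a neural crest deletion of ADAR1 and control nerves. ADAR1 is the enzyme that edits adenosine to inosine in double-stranded RNA.

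gp130, the product of *Il6st*, is the shared signalling receptor of a cytokine family, and each cytokine reaches it through its own partners. IL-6 and IL-11 first bind a private alpha receptor, LIF recruits the LIF receptor (*Lifr*), oncostatin M uses its own receptor (*Osmr*) in mice, and CNTF and CLCF1 need CNTFR together with the LIF receptor. The complexes activate JAK kinases and STAT3, and SOCS3 binds to gp130 and ends the signal. In peripheral nerve, CNTF is known as a product of myelinating Schwann cells, and LIF and IL-6 as cytokines produced after nerve injury.

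The libraries held 50938349 to 78250094 reads counted on genes, and values are these reads divided by a size factor per library. The targeted gene *Adar* (GSMG0024553) stood at 1602, 2066 and 1133 in the controls, taken in the order of their replicate numbers as in all later lists, against 11768, 9311 and 9773 in the mutants, with a log2 change of 2.72 (standard error 0.20, adjusted p = 4.1e-05 by limma). This rise goes against the deletion that the labels name, and a single value per gene does not separate the deleted exons from the others. Libraries are therefore named by their labels, and each direction below is drawn from them. Schwann cell markers were present, and 8 of the 9 listed fell, their summed level being 3654070 to 4473670 in controls and 101520 to 545515 in mutants. *Sox10*, which marks the whole lineage, had a log2 change of -0.71 and did not reach the threshold of 2-fold. In bulk nerve, fewer cells of a type and less RNA per cell cannot be told apart.

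Of the 9 genes, 7 rose in the mutant-labelled libraries and 0 fell, counting *Clcf1* by a row of the table that it shares with other genes. Of the 7 genes with a row of their own, 6 rose. A gene counts here as risen or fallen when its unadjusted p from limma was at or under 0.05 and it changed at least 2-fold. Among all 25802 genes tested, 13.9% rose and 10.4% fell by the same rule. With an adjusted p at or under 0.05 (Benjamini-Hochberg), the count stayed at 7 in this fit, and 11.5% of all tested genes rose. *Osm* was the closest to that limit, and in some other fits its adjusted p was above 0.05. All 9 genes had their 3 mutant values on 1 side of the 3 control values, 8 above and 1 below, where 49.2% of all tested genes were separated in this way. The median log2 change was 1.72 over the 9 genes and 0.03 over all tested genes. *Il6* had the largest change among the 9 genes and *Lif* the smallest p. *Cntf* and *Lifr* were the genes that did not pass.

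**Figure D1:**
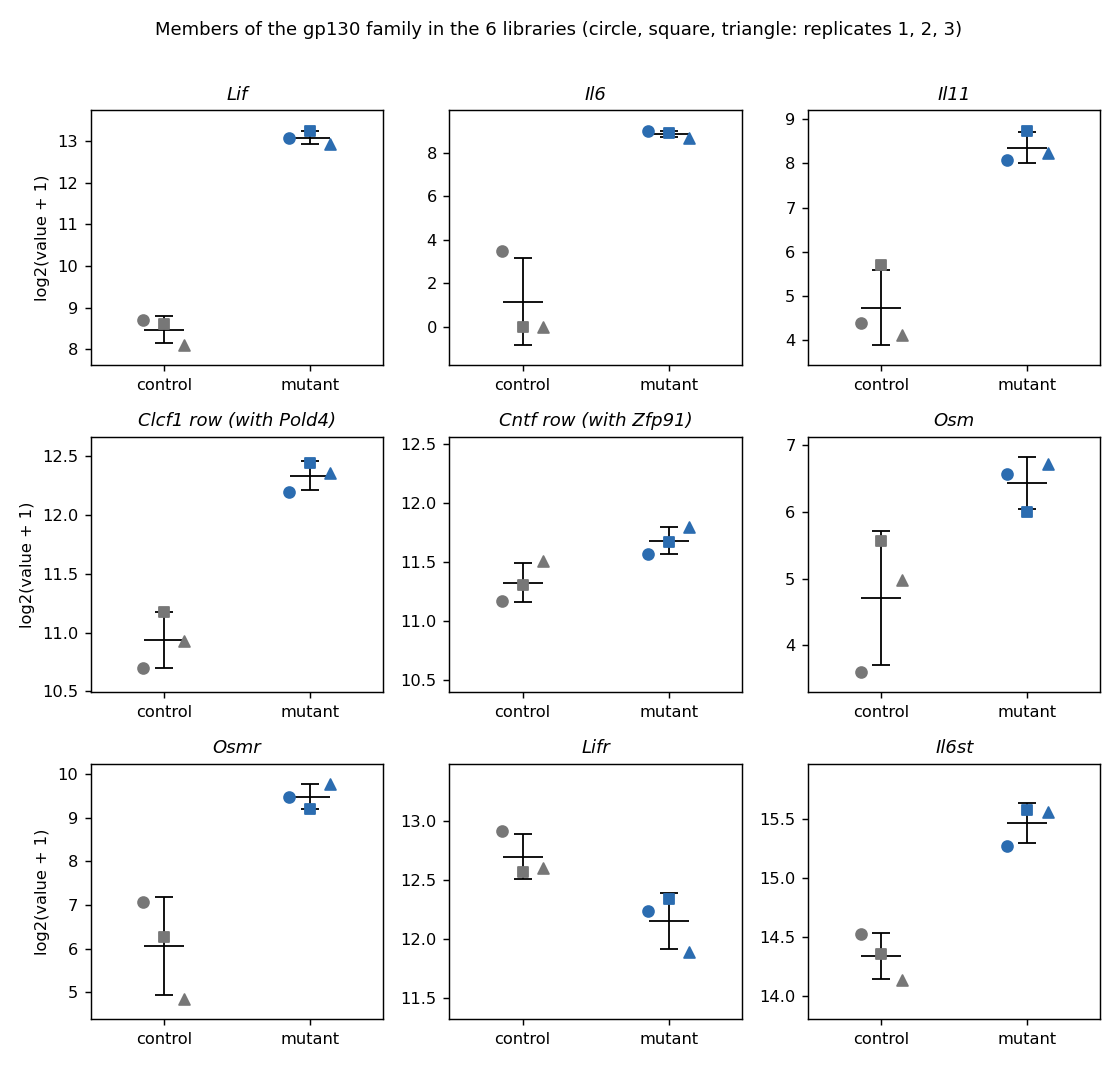
The plot shows log2(value + 1) of the 9 genes in each library, with a vertical scale of its own for each gene. Grey points are controls, blue points are mutants, and lines and bars are the mean and SD of 3 libraries. Mutant points lie above the control points in 8 panels and below them in the panel of *Lifr*.

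*Lif* (GSMG0004838, mm10 chr11:4257568-4272514, plus strand) encodes leukemia inhibitory factor. Its values were 414, 387 and 274 in the controls against 8586, 9741 and 7782 in the mutants. The lowest mutant value was many times the highest control value, and both groups were tight, with coefficients of variation of 20.8% in controls and 11.3% in mutants. The mean went from 358 ± 74.6 to 8703 ± 985 (SD, n = 3 libraries each), a 24.3-fold difference. The log2 change was 4.61 (standard error 0.17, adjusted p = 2.26e-06 by limma), which ranked 22 by p and 401 by size among the tested genes.

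*Il6* (GSMG0028981, chr5:30013114-30019981, plus strand) was close to absent from control nerves. Control replicate 1 held 9 reads and the other controls 0, while the mutants held 699, 496 and 417 reads. As values, these were 9.99, 0 and 0 against 508, 479 and 412. The groups lay far apart, and mutant replicate 1 was the highest. The log2 change was 7.71 (standard error 0.91, adjusted p = 0.000381), rank 25 by size among the tested genes. Since the controls held almost no reads, its size depended on the pseudocount, from 5.24 with a pseudocount of 10 to 9.96 with 0.1. Without control replicate 1, the library that held the control reads, it was 8.86.

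*Il11* (GSMG0035447, chr7:4772373-4782858, minus strand), a cytokine that uses gp130 as IL-6 does but through another alpha receptor, had values of 19.99, 51.02 and 16.5 in the controls. The mutant values were 267, 426 and 302. Each mutant exceeded each control by at least several times, and replicate 2 was the highest in both groups. The mean rose from 29.2 ± 19.01 to 332 ± 83.9 (SD, n = 3), with a log2 change of 3.61 (standard error 0.46, adjusted p = 0.000563).

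*Osm* (GSMG0004836, chr11:4236785-4241026, plus strand), the gene of oncostatin M and the neighbour of *Lif* at a distance of 16.5 kb, had the fewest reads in the mutants among the 6 ligands of the family genes chosen here. Its values were 11.1, 46.3 and 30.4 in the controls against 94.6, 62.7 and 104.8 in the mutants. The lowest mutant, replicate 2, was not far above the highest control, also replicate 2. The log2 change of 1.72 (standard error 0.57, adjusted p = 0.0453 by limma) came with the largest p among the 7 genes that passed. It no longer passed without mutant replicate 1 (1.65, adjusted p = 0.119) or without mutant replicate 3 (1.57, adjusted p = 0.137). In some other fits it passed by the unadjusted p only. Its adjusted p was 0.0569 with edgeR and 0.0734 by limma without trend, against 0.0291 with DESeq2.

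*Clcf1* and *Cntf*, which encode the ligands that need CNTFR, were each counted in a row together with a neighbour. The row of *Clcf1* (GSMG0060613, chr19:4214238-4233634, plus strand) also names *Pold4*, a subunit gene of DNA polymerase delta, the readthrough transcript of both genes and *Gm45928*. Its values were 1666, 2316 and 1945 in the controls against 4691, 5556 and 5229 in the mutants. The mutants were all above the controls, by 2.61-fold in the mean, and the log2 change was 1.39 (standard error 0.14, adjusted p = 0.000147). GENCODE places the exons of *Clcf1* (3806 bases) and *Pold4* (1164 bases) apart from each other, with 0 bases in common. The value of the row is 1 number, so it does not tell which of the genes rose.

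The row of *Cntf* (GSMG0020136, chr19:12763528-12796127, minus strand) also names *Zfp91*, which encodes a zinc finger ubiquitin ligase, and *Gm44505*. Its values were 2302, 2529 and 2907 in the controls against 3039, 3256 and 3563 in the mutants. The groups were separated by a narrow gap, with a log2 change of 0.35 (standard error 0.12, adjusted p = 0.0484), which was below 2-fold. The exons of *Cntf* make up 1073 bases, and 847 of them (78.9%) also lie in exons of *Zfp91*, whose exons make up 10046 bases over 99.6% of the row. A level of *Cntf* alone, the ligand best known from Schwann cells, can therefore not be read from this value. Another gene, which has no symbol, overlaps the row on the same strand.

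**Figure D2:**
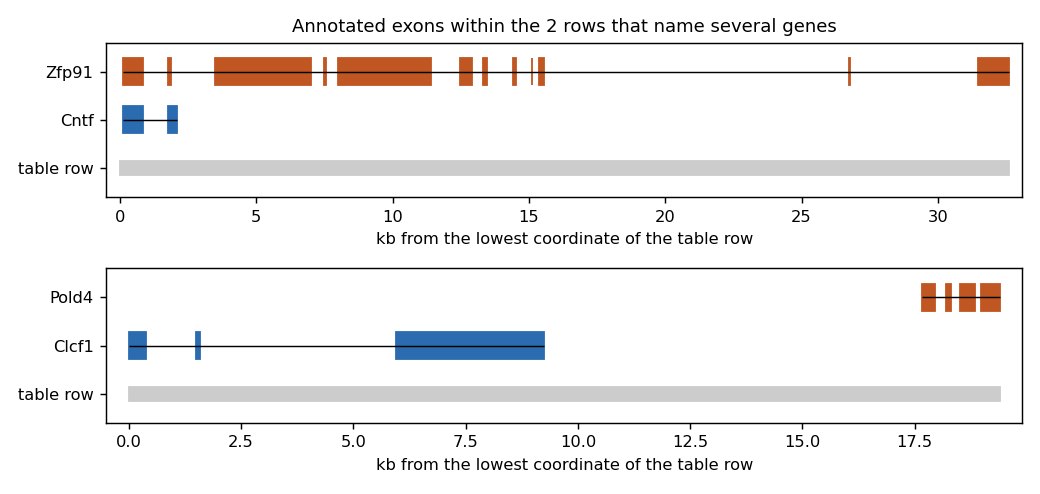
The map shows annotated exons (boxes) of the genes that share a row of the table, in kb from the lowest coordinate of the row, with the row as a grey bar. *Cntf* covers 6.05% of its row and its exons lie mostly within exons of *Zfp91*, whereas *Clcf1* covers 47.7% and *Pold4* 8.95% of the other row without a shared exon.

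The sequences before the starts of *Lif*, *Il6* and *Il11* are shown because these ligands rose most and each has a row of its own. RefSeq windows of GRCm38.p6 (the build mm10) matched 7 of the 9 genes, and *Clcf1* and *Osm* had none. Each line holds the 250 bases before a start, written 5′ to 3′ on the strand of the gene, and capitals mark matches to the motifs searched: *Lif* chr11:4257318-4257567 on plus, *Il6* chr5:30012864-30013113 on plus, and the second listed start of *Il11*, chr7:4778142-4778391 on minus.
Lif: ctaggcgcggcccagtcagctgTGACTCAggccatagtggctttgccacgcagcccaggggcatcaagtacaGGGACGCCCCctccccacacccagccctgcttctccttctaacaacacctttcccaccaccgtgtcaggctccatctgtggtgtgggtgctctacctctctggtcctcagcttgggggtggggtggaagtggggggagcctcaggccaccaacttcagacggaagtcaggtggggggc
Il6: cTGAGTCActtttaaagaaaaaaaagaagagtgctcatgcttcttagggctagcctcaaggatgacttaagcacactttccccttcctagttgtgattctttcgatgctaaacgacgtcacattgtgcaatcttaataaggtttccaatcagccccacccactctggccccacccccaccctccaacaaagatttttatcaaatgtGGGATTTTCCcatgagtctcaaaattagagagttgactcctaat
Il11: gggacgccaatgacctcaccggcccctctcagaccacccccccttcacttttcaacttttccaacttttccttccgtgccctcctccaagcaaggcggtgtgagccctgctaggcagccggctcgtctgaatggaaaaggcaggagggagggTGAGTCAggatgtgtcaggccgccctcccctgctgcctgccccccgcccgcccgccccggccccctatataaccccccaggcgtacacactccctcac

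On both strands, the search covered the AP-1 site (TGANTCA, in 6.75% of 32851 windows of 250 bases), the kappaB site (7.25%), the STAT palindrome (TTCNNNGAA, 7.02%), the core of the interferon-stimulated response element (GAAANNGAAA, 2.98%) and the cAMP response element (TGACGTCA, 1.55%). *Lif* held an AP-1 match 228 to 222 bases before the start and a kappaB match at 178 to 169. *Il6* held an AP-1 match at 249 to 243 and a kappaB match at 44 to 35. *Il11* held an AP-1 match at 98 to 92, and its first listed start had 0 matches. These matches did not overlap each other, and they are descriptions of letters, not of binding. *Cntf*, which did not pass, held an AP-1 match too, at 245 to 239.

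Among the receptors, *Osmr* and *Il6st* rose and *Lifr* did not pass. *Osmr* (GSMG0013744, chr15:6813577-6874969, minus strand) encodes the subunit that makes a cell responsive to oncostatin M. Its values were 133, 75.6 and 27.9 in the controls against 714, 586 and 865 in the mutants. All mutants were well above all controls, and the controls were spread more widely, with a coefficient of variation of 66.9% against 19.4%. The mean went from 78.9 ± 52.8 to 722 ± 140.04 (SD, n = 3), a 9.15-fold difference, with a log2 change of 3.42 (standard error 0.50, adjusted p = 0.00116 by limma). Without control replicate 3, the lowest library, the log2 change was 2.82, a smaller fold by more than 1.5 times.

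*Il6st* (GSMG0010210, chr13:112464070-112506860, plus strand), the gene of gp130 itself, was read deeply in every library. Its values were 23676, 21045 and 17989 in the controls against 39699, 48973 and 48329 in the mutants. The groups did not overlap, and mutant replicate 1 was the lowest of the mutants. The mean rose 2.18-fold, from 20903 ± 2846 to 45667 ± 5178 (SD, n = 3), with a log2 change of 1.13 (standard error 0.13, adjusted p = 0.000319).

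*Lifr* (GSMG0012940, chr15:7129558-7197489, plus strand) lies 255 kb from *Osmr* and encodes the receptor of LIF, which CNTF and CLCF1 also use. Its values were 7748, 6098 and 6242 in the controls against 4850, 5179 and 3796 in the mutants. It was the only one of the 9 genes with every mutant below every control. The mutant mean was 68.8% of the control mean and the log2 change was -0.54 (standard error 0.14, adjusted p = 0.0196), which did not reach 2-fold. On their opposite strand, *Lif*, *Il11*, *Osmr*, *Lifr* and *Il6st* are each overlapped by 1 gene without a symbol, and whether the counting used the strand of the reads is not given in the sources used here.

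Of the receptors, *Osmr* rose most and *Il6st* was the shared one, so the 250 bases before their starts are shown for comparison with those of the ligands: *Osmr* chr15:6874314-6874563 on minus and *Il6st* chr13:112463820-112464069 on plus. Capitals would mark the same motifs, and neither window held one.
Osmr: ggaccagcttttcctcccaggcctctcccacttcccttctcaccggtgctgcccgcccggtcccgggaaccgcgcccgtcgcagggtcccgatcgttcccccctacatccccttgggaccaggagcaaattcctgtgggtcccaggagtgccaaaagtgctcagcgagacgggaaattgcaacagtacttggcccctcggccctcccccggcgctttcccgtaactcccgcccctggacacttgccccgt
Il6st: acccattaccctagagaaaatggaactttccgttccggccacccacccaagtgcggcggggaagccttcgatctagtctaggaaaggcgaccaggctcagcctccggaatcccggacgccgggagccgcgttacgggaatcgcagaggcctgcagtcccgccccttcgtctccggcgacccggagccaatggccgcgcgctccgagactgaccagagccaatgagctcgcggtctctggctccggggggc

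Both windows held more CG pairs (18 in *Osmr* and 26 in *Il6st*) than those of *Lif* (6), *Il6* (3) and the second start of *Il11* (12). The windows of *Lifr*, at 2 listed starts, held 43 and 3 CG pairs and 0 matches.

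Ratios of receptor genes within a library were taken on values + 1, so that the size factors enter them only through the added 1, and they were compared as differences of log2 ratios between genotypes. The level of such a ratio also reflects the lengths of the counted regions, so only its change is described. The log2 ratio of *Osmr* to *Lifr* was -5.85, -6.32 and -7.76 in the controls against -2.76, -3.14 and -2.13 in the mutants. The mutants were all higher, by 3.96, which is a 15.6-fold higher ratio. Relative to *Il6st*, *Osmr* was higher by 2.29 and *Lifr* lower, with a difference of -1.67.

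The alpha receptors, like *Lifr*, had lower ratios to *Il6st* in the mutants, but *Il6st* itself rose by 1.13. A gene without any change would thus also have a lower ratio, by about that size. Their own log2 changes were 0.52 for *Il6ra*, -0.11 for *Il11ra1* and -1.14 for *Cntfr*. The difference of log2 ratios was -0.61 for *Il6ra*, -1.24 for *Il11ra1* and -2.27 for *Cntfr*, the last a ratio that was 0.208 of the control ratio. The row of *Il6ra* spans 1179160 bases and takes in *Shc1* and *Adar* on the opposite strand, and their part in its value was not tested. The ratio of *Lif* to the shared row of *Cntf* was higher by 4.26. In each of the 7 ratios compared, the 3 mutant libraries lay on 1 side of the 3 controls, and each gave p = 0.1 in the exact two-sided permutation test, the smallest value that 3 against 3 libraries allow, and 0.1 after adjustment over the 7 ratios. No ratio could thus reach 0.05 by this test.

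**Figure D3:**
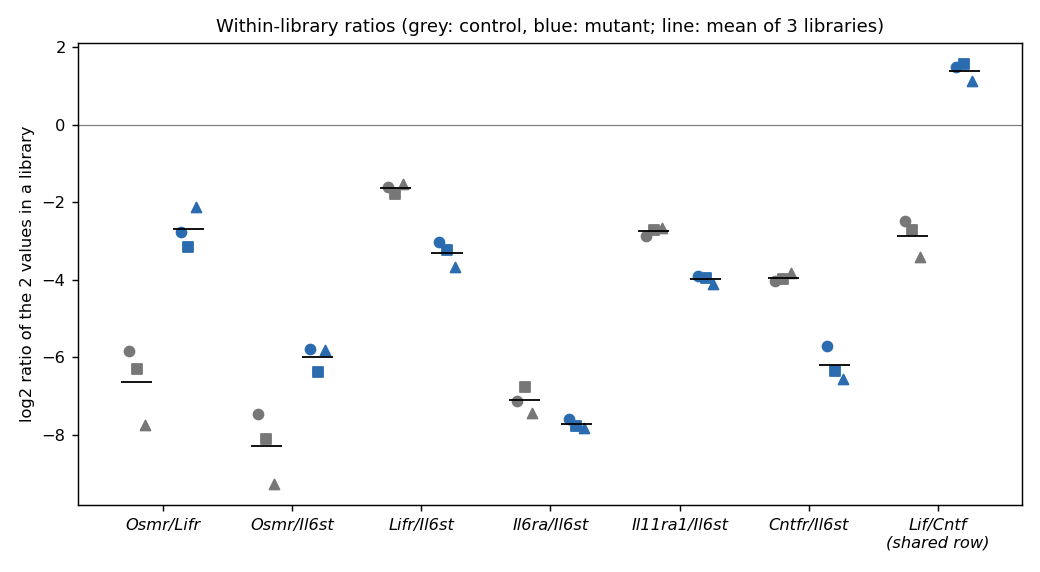
The plot shows log2 ratios of 2 genes within each library, with 3 controls in grey, 3 mutants in blue (circle, square and triangle for replicates 1, 2 and 3) and a line at each mean. The ratios with *Osmr* or *Lif* on top were higher in the mutants, and those of *Lifr*, *Il6ra*, *Il11ra1* and *Cntfr* to *Il6st* were lower.

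The other genes of the pathway were taken from 5 lists by role with 46 genes, of which 45 were analysed here and 43 had enough signal for the test. Of the 43, 20 rose and 1 fell, and 22 did not pass, where 13.9% of all tested genes rose and 10.4% fell. The median log2 change over the lists was 0.81, against 0.03 over all tested genes.

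Of the 3 other ligands tested, 1 rose (13.9% over all tested genes). *Il27*, which encodes a subunit of interleukin-27, rose from 12.2, 9.45 and 0 to 97.5, 116.7 and 25.7 (log2 change 3.71, adjusted p = 0.0282). Mutant replicate 3 was the lowest of the mutants for *Il27* and still above each control. Its log2 change was 2.53 without control replicate 3, 4.39 without control replicate 1 and 4.38 without mutant replicate 3, and over all alternatives it ranged from 2.27 to 4.87. *Ctf1*, the gene of cardiotrophin-1, had a log2 change of 0.52 (adjusted p = 0.25) and *Ebi3*, the partner of *Il27*, one of -0.01 (adjusted p = 0.989). *Ctf2* had 0 reads in every library, and *Il31*, which signals through *Osmr* rather than gp130, was seen in mutant replicate 1 only, with a value of 11.6.

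Of the 6 other receptor subunits, 1 rose and 1 fell, which is close to the shares of 13.9% and 10.4% over all tested genes. *Cntfr*, the alpha receptor of CNTF and CLCF1, had values of 1454, 1329 and 1269.7 in the controls against 753, 596 and 510.4 in the mutants. All mutants were below all controls, with a log2 change of -1.14 (standard error 0.16, adjusted p = 0.00107), although it was -0.98 and no longer 2-fold when libraries were scaled to the same total. The summed Schwann cell markers were lower in the same libraries, and their part in this difference was not tested. *Il27ra* rose from 103, 69.0 and 90.0 to 199, 219 and 202 (log2 change 1.25, adjusted p = 0.00746). *Il6ra* (0.52, in a row that also spans *Shc1* and *Adar*), *Il11ra1* (-0.11), *Il31ra* (0.73) and *Il11ra2* (0.19, in a shared row) did not pass. The private receptors of IL-6 and IL-11 did not pass in the same libraries in which these ligands and *Il6st* rose. All mutant values of *Il6ra* were nevertheless above all its control values.

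Among 10 signal transducers 1 gene, *Stat3*, rose, a share below the 13.9% of all tested genes. *Stat3*, the main transcription factor below gp130, went from 3927, 4312 and 3385 to 10453, 9417 and 9841 (log2 change 1.36, adjusted p = 5.43e-05). Control replicate 2 was the highest control, and each mutant was more than 2-fold above it. The kinases *Jak1* (0.67), *Jak2* (0.40) and *Tyk2* (-0.57) did not reach 2-fold, nor did *Stat5a* (0.54), *Stat5b* (0.57), *Gab1* (-0.71), *Ptpn11* (0.29), *Grb2* (-0.08) and *Shc1* (-0.09).

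**Figure D4:**
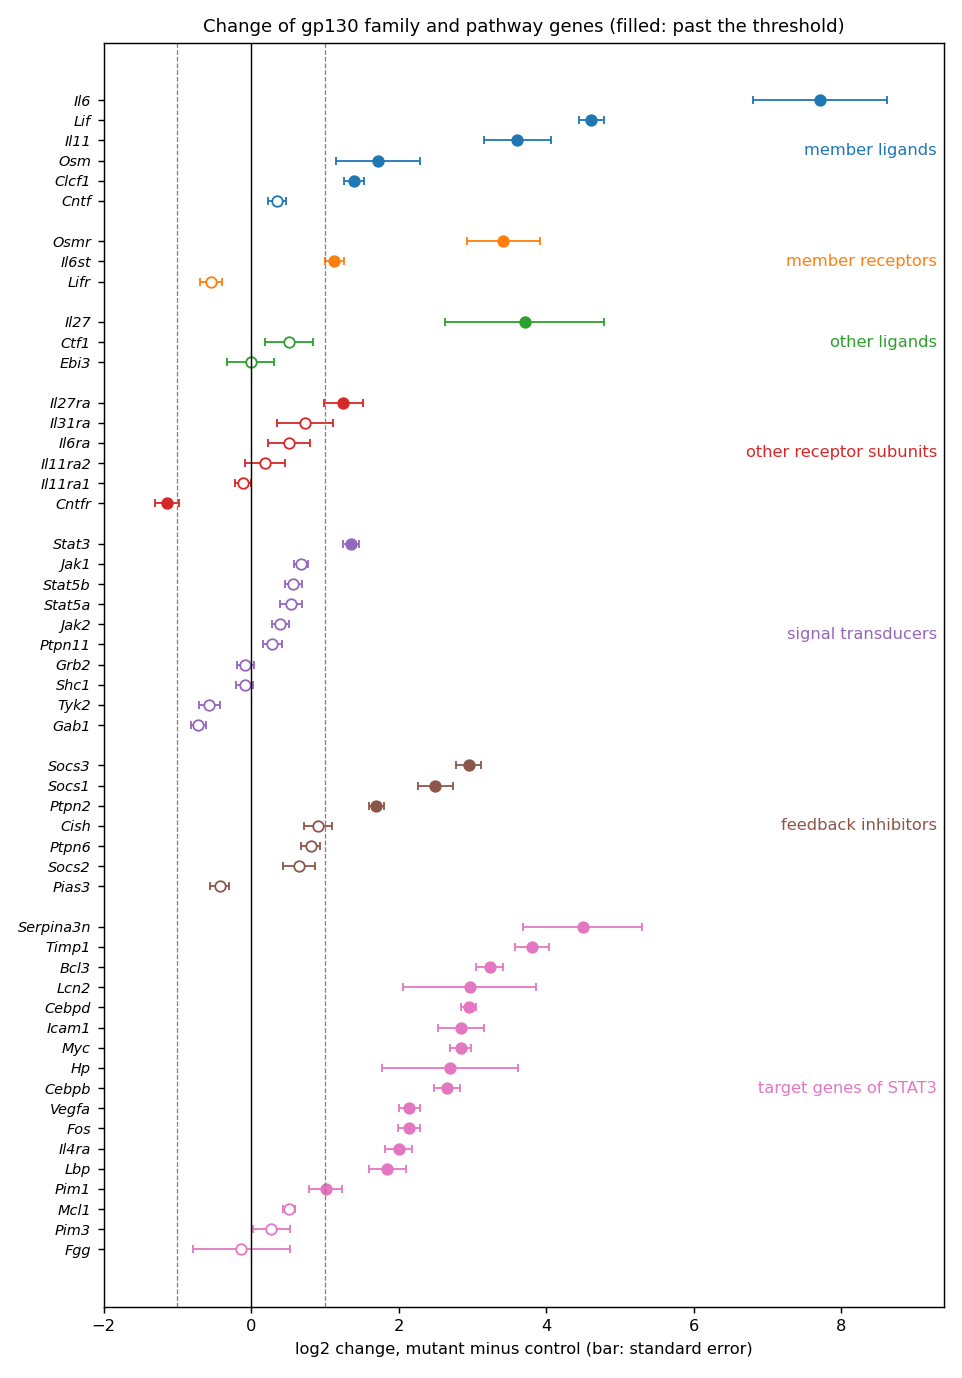
The plot shows the log2 change (mutant minus control) with its standard error for the 9 genes and the 43 tested pathway genes, grouped by role, with filled points for genes past the threshold and dashed lines at 2-fold. Filled points lie to the right in every group, and *Cntfr* is the 1 filled point to the left.

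The feedback inhibitors that rose were 3 of 7 (13.9% over all tested genes). *Socs3*, the inhibitor that binds gp130, had values of 634, 907 and 632 in the controls against 5953, 5997 and 4739.6 in the mutants. The groups were wide apart, with a log2 change of 2.95 (standard error 0.17, adjusted p = 1.13e-05). *Socs1*, an inhibitor of JAK kinases, rose by 2.50 and *Ptpn2*, a phosphatase of JAK and STAT proteins, by 1.70 on the log2 scale (adjusted p = 0.000138 and 1.55e-05). *Socs2* (0.65), *Cish* (0.90), *Ptpn6* (0.81) and *Pias3* (-0.43) did not pass, although all mutant values were above all control values for the first 3 of these genes and below them for *Pias3*.

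The list of STAT3 target genes had 17 tested genes, of which 14 rose and 0 fell (13.9% and 10.4% over all tested genes), with a median log2 change of 2.65. The genes of transcriptional regulators that rose were *Bcl3* at 3.23, *Cebpd* at 2.95, *Myc* at 2.84, *Cebpb* at 2.65 and *Fos* at 2.14. *Cebpd* was the most even of them, with 1044, 1276 and 1067 in the controls against 8748, 8671 and 8639.6 in the mutants (adjusted p = 2.03e-06). *Serpina3n* (4.49), a protease inhibitor of the acute phase, *Timp1* (3.81), an inhibitor of metalloproteinases, *Vegfa* (2.15) and *Lbp* (1.85) also rose, whereas *Fgg*, which encodes the fibrinogen gamma chain of the acute phase, did not pass (-0.13). *Icam1* (2.84), an adhesion molecule, *Il4ra* (2.001) and the kinase gene *Pim1* (1.01) passed, and *Pim3* (0.27) and *Mcl1* (0.51) did not. *Pim1* was at the limit, and it fell short of 2-fold under 6 alternatives, edgeR (0.98) and DESeq2 (0.97) among them. Several of these genes, such as *Icam1*, *Bcl3* and *Fos*, are known to answer to other pathways besides STAT3.

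*Lcn2* and *Hp*, which encode the acute phase proteins lipocalin-2 and haptoglobin, rested largely on 1 library. *Lcn2* had values of 18.9, 13.2 and 34.2 in the controls against 64.7, 820.1 and 87.0 in the mutants. *Hp* had 202, 45.4 and 73.5 in the controls against 220, 2780 and 310 in the mutants. Mutant replicate 2 was far above the other mutants for both, and the lowest mutant value of *Hp* was just above its highest control. The log2 change of *Lcn2* went from 2.97 to 1.82 without that library and that of *Hp* from 2.70 (adjusted p = 0.0513) to 1.56. Both genes still passed there by the unadjusted p, with adjusted p = 0.0535 and 0.0988 by limma. Without mutant replicate 1 the log2 changes were 3.64 and 3.39, and *Hp* was at 3.29 without control replicate 1. DESeq2 gave no p for either gene. Without control replicate 2, *Hp* no longer passed (2.23, adjusted p = 0.149). The summed adipocyte markers were 25922 in mutant replicate 2 against 3195 and 4336 in the other mutants and 5351 to 12164 in the controls. The summed smooth muscle and pericyte markers were also highest there, at 60804 against 20632 and 34617 in the other mutants and 19021 to 37964 in the controls. The part of either cell type in both values was not tested. *Serpina3n* also moved with single controls, to 3.57 without control replicate 3 and to 5.34 without control replicate 2.

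**Figure D5:**
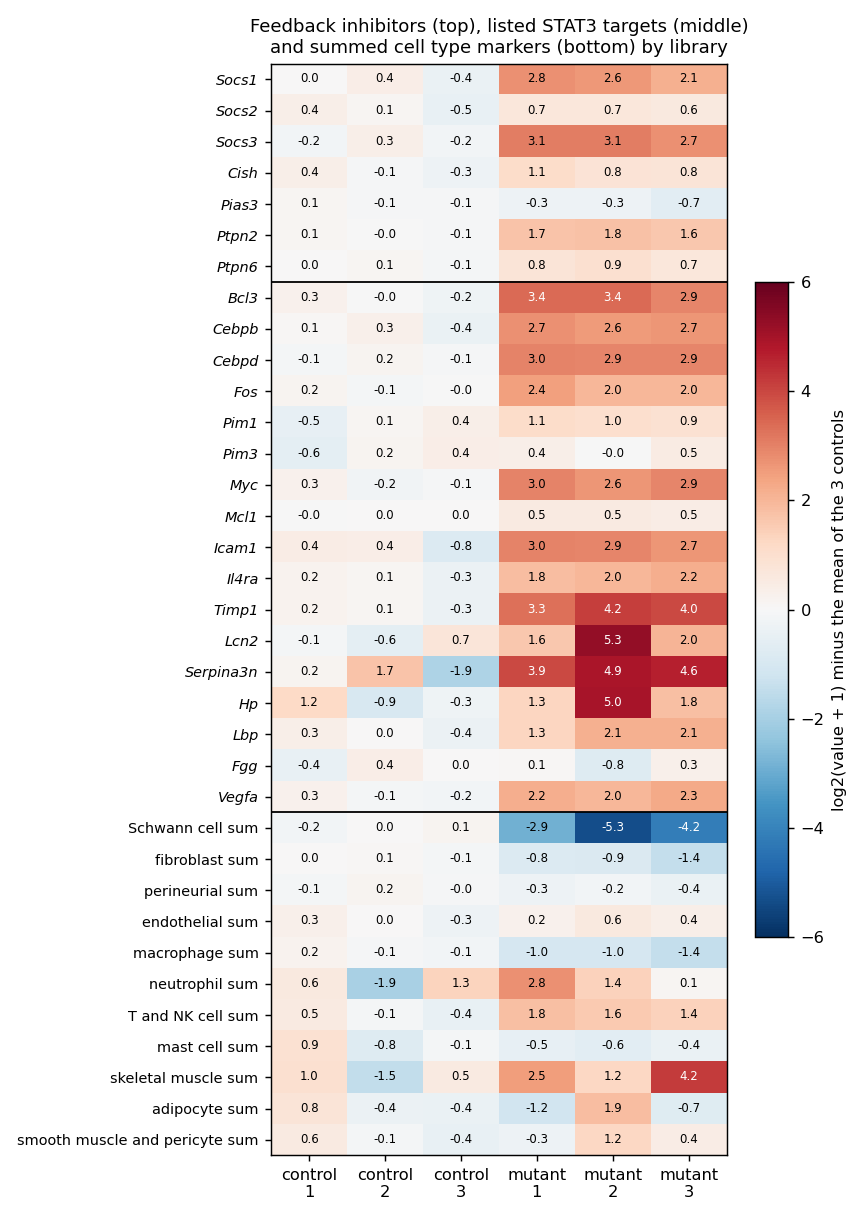
The map gives log2(value + 1) minus the control mean for feedback inhibitors and STAT3 targets, and the same for the summed level of each cell type marker list, by library. Most target genes are high in all 3 mutants, *Lcn2* and *Hp* stand out in mutant replicate 2 together with the adipocyte sum, and the skeletal muscle sum stands out in mutant replicate 3.

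Markers of other cell types in the nerve moved between the groups as well, and their part in the values of the cytokines and receptors was not tested. The counts of markers below can be set against the 13.9% of all tested genes that rose and the 10.4% that fell. The summed macrophage markers ranged from 10692 to 13731 in controls and from 4373 to 5989 in mutants, with 3 of 6 markers lower and 0 higher. Summed T and NK cell markers ranged from 104 to 203 and from 366 to 490, with 4 of 5 tested markers higher (3 with an adjusted p at or under 0.05). *Cd3d* and *Cd8a* had 0 reads in the controls. Neutrophil markers ranged from 15.1 to 156 and from 67.3 to 420, with 0 of 4 tested markers past the threshold and *Ly6g* at 0 reads in the controls. Skeletal muscle markers ranged from 5187 to 28319 and from 34500 to 267697, with 4 of 5 higher and the highest sum in mutant replicate 3. Fibroblast markers ranged from 1925530 to 2169260 and from 774845 to 1177220, with 2 of 5 lower. Most of this sum came from the collagen genes *Col1a1* and *Col1a2*, the 2 that fell (log2 changes -1.10 and -1.01). *Pdgfra* (0.16), *Dcn* (0.0049) and *Lum* (-0.43) did not pass. *Osm* and *Osmr* had their highest value in mutant replicate 3 and *Lif* in mutant replicate 2.

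The genes whose pattern was most like that of *Lif* over the 6 libraries, by Pearson r of log2(value + 1), were *Sik1*, a salt-inducible kinase, *Adss*, an enzyme of AMP synthesis, *Muc1*, a mucin, *Plin2*, a lipid droplet protein, and *Ccdc25*, each with r = 0.999. For *Il6st* they were *A530072M11Rik*, *Herc3*, *Orc4*, *Slc30a7* and *Rnf169*, with r from 0.9974 to 0.9996. The 6 points fall into the 2 genotypes, so r was high for any gene with an even difference between them, and 354 tested genes exceeded 0.99 with *Lif* and 74 with *Il6st*. The sizes of change differed among these genes, from 0.63 for *Adss* to 2.596 for *Muc1* on the log2 scale, against 4.61 for *Lif*.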

How the data were processed

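Sciatic nerve RNA of 3 control and 3 mutant mice at P4 was sequenced from oriented poly-A cDNA libraries. The authors mapped reads to mm10 with STAR 2.4.0, took the reads in constitutive regions of FAST DB genes, and scaled each count by a DESeq2 size factor. The deposited table gives this signal for each gene and library. Values were whole multiples of 1 read in 100% of cases (within 0.01 of a read), where 1 read was worth 0.727 to 1.27, and edgeR and DESeq2 were run on the reads so recovered. Groups and replicate numbers come from the labels. Each library is a separate animal, and p-values measure the spread between these animals only.

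log2(value + 1) was fitted with limma (lmFit, eBayes with trend), mutant minus control, for the 25802 genes whose mean value reached 10 in either genotype. To pass, a gene needed an unadjusted p of no more than 0.05 and at least 2-fold, the limits of the study's methods, and p-values were adjusted over the 25802 genes (Benjamini-Hochberg). Log2 changes and the 2-fold limit are on the log2(value + 1) scale. There the pseudocount lowers the changes of genes with few reads relative to a smaller one. A fold printed for the mean of a gene is the ratio of the mean values. Intervals of counting error are not given. Ratios of genes within a library were compared by an exact two-sided permutation test. The genes, lists and tests were chosen with earlier results of these data known. Named genes are the 9 family genes, the genes of the pathway lists that passed and each other ligand or receptor subunit, *Adar*, and the 5 genes most like *Lif* and *Il6st*. The pathway genes that did not pass are named beside them, outside this rule. *Sox10* and other single genes outside the pathway lists come from the marker lists.

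Exons are those of GENCODE vM21 on GRCm38, promoters those of RefSeq. Motifs were searched on both strands. Protein motifs were not analysed here, and a few further genes of the pathway are not reported here and are in none of the counts. The limma, edgeR and DESeq2 steps were tested on simulated data. Results were recomputed under 12 alternative settings and after leaving out each library (6 fits). R 4.3.3, limma 3.58.1, edgeR 4.0.16, DESeq2 1.42.0, version 1.17.8 of the data.table package, Python 3.11.15, numpy 2.4.6, scipy 1.17.1 and matplotlib 3.10.9 were used.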

Additional observations from a re-analysis of the deposited data

How the results depend on the processing

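Of the 9 genes, 6 to 7 rose and 0 fell under all 12 other settings and in the 6 fits that each leave out a library. The count of 6 came without mutant replicate 1 or mutant replicate 3, where *Osm* had log2 changes of 1.65 and 1.57 and no longer passed. Counting only the 7 genes with a row of their own, an alternative chosen after seeing the data, 6 rose. Among the other pathway genes, 17 to 21 rose (19 to 21 with a library left out) and 1 fell, except that 0 fell when libraries were scaled to the same total. No log2 change of the 9 genes changed sign, and the differences of the 7 ratios kept their direction when each library was left out and with pseudocounts of 0.1 and 10. *Pim1* lost its call under 6 alternatives, with log2 changes of 0.77 to 0.99, and *Hp* with an adjusted p, without trend and without control replicate 2. The lowest count, 17, came from DESeq2, which gave no p for *Hp* and *Lcn2*, so that neither could be counted there. *Cish* reached 2-fold at the same total (1.07) and without control replicate 1 (1.079), as did *Il31ra* without the latter (1.079). Scaling to the same total moved the median log2 change of all genes from 0.03 to 0.19, and the share of risen genes among all that passed from 57.3% to 66.2%. On that scale *Lif* changed by 4.78, *Il6st* by 1.29 and *Lifr* by -0.38.

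Replicate numbers mark separate animals, and libraries with the same number did not deviate together, with correlations of -0.062, -0.055 and 0.0089 across genes. With the replicate block, 7 of the 9 genes rose and 0 fell, and 20 pathway genes rose and 1 fell.

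With 3 animals per genotype and 1 value per gene, cell types cannot be separated. *Il6*, *Osm* and *Il11* had at most 54 reads in any control, which limits the precision of their change. The rows of *Clcf1* and *Cntf* hold other genes, and no setting separates them.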

Other observations

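The 9 genes did not share 1 highest library. Among the mutants, replicate 2 held the highest value for 5 of them, replicate 3 for 3 and replicate 1 for 1. Among the controls, replicate 1 was highest for 5, replicate 2 for 3 and replicate 3 for 1. *Il6* was the gene of the family with its highest mutant value in replicate 1.

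Other cell types of the nerve gave the following values. Endothelial markers summed to 11561 to 17724 in controls and 16984 to 21836 in mutants, with 0 of 5 markers past the threshold. Perineurial markers summed to 16525 to 19954 and 13634 to 15715. *Itgb4*, which encodes an integrin also made by Schwann cells, fell with a log2 change of -1.62 (adjusted p = 4.35e-05 by limma), and *Cldn1*, a tight junction gene, had one of 0.54. Mast cell markers were highest in control replicate 1, at 11868, and ranged from 3757 to 5801 in the other controls and from 4123 to 4762 in the mutants. Of these, 1 of 5 fell, *Cpa3* (log2 change -1.19, adjusted p = 0.0638 by limma), where 10.4% of all tested genes fell. Smooth muscle and pericyte markers ranged from 19021 to 37964 in controls and from 20632 to 60804 in mutants, and 0 of 4 passed.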
